A study of Mus musculus with 2 samples.

Results

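The genes for the proteins of the cytosolic ribosome were examined in Treg, the CD4 T cells with regulatory function, which restrain immune responses and require the transcription factor Foxp3. Members were taken by name: symbols of Rpl or Rps followed by a number and at most 1 letter, and Rplp0, Rplp1, Rplp2 and Rpsa. This gave 46 genes out of 18194 that had a probe set of their own on the array, 24 of the large subunit and 22 of the small. A gene was read by its brightest probe set, a group of short probes against 1 transcript. Rplp1, Rpl3 and Rpl5 are among 28 symbols that met the name rule but occurred only on probe sets annotated with several genes, and these 28 have no value here. Of the small subunit these are Rps12, Rps13, Rps15a, Rps21 and Rps23, and the other 23 are of the large. Rps3a1, which falls outside the name rule, was among the brightest genes at log2 16.175 and 16.16 in the fl/wt and fl/fl arrays described next.

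The data were 2 arrays, 1 per genotype, of Treg that flow cytometry had sorted out of the spleen and lymph nodes of females at 6 to 8 weeks, read with Affymetrix probes. The donors of 1 array carried the alleles written Foxp3<Cre/wtS> and Stat3<fl/wt>, and those of the other Foxp3<Cre/wtS> and Stat3<fl/fl>. They are called fl/wt and fl/fl below. The design text writes the Foxp3 allele of the fl/fl mice as Cre/wt. Both genotypes therefore have Cre recombinase expressed from the Foxp3 locus, and the fl/wt cells also have 1 floxed (loxP-flanked) copy of the signalling factor gene Stat3. Foxp3 is X-linked, so in a heterozygous female only Treg using the Cre-bearing X make the enzyme. For the sort of Cre-bearing cells, the number of mice and the pooling, the sources used here give nothing. With no replicate array, no difference below has a replicate error or a test. In bulk RNA, fewer cells of a type and less RNA per cell cannot be told apart, and normalisation between arrays removes a change shared by all transcripts.

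A ribosome joins a small subunit, which reads the messenger RNA, to a large subunit, which forms the peptide bond, and nearly every protein is present in a single copy. Cells make these proteins in matched amounts. Their messenger RNAs are known for a run of pyrimidines (C or T) at the very 5′ end, the terminal oligopyrimidine or TOP element, through which the growth kinase mTOR controls their translation. T cells raise ribosome production when they are activated. An array reads the amount of RNA and not its translation.

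The letters at the transcript starts show where a TOP element would lie. RefSeq promoter sequences (build GRCm38.p6, from 250 bases before to 50 after an annotated start) were found for 40 of the 46 genes, as 48 starts. The windows printed below cover 15 bases on either side of the start for the 3 brightest genes of each subunit that had an entry, and for the 4 genes with the largest differences between the arrays among the remaining ones, paralogs ending in l left out. The longest run of C or T is in capitals.
Rpl13a (chr7:45128731-45128760, minus strand): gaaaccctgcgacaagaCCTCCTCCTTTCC
Rplp2 (chr7:141447636-141447665, plus strand): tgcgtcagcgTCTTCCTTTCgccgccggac
Rpl35 (chr2:39005117-39005146, minus strand): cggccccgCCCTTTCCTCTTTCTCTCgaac
Rps18 (chr17:33955651-33955680, minus strand): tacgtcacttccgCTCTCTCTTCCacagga
Rps28 (chr17:33824548-33824577, minus strand): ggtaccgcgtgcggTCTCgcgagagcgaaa
Rps4x (chrX:102189377-102189406, minus strand): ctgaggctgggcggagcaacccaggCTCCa
Rps27 (chr3:90213634-90213663, minus strand): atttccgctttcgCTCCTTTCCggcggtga
Rps6 (chr4:86857353-86857382, minus strand): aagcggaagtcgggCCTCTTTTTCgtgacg
Rpl27a (chr7:109519180-109519209, plus strand): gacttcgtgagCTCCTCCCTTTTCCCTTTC
Rpl12 (chr2:32961697-32961726, plus strand): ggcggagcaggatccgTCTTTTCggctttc

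Within the printed windows the runs were longest in Rpl27a (19 bases) and Rpl35 (18), and shortest in Rps28 and Rps4x (4 each). Those of Rpl27a and Rpl13a reach the last base of the window, so their lengths are lower limits. A pyrimidine run of at least 8 bases lay in this 30-base window for 18 of the 48 starts (37.5%), against 3943 of all 32851 promoters in the table and 9 of the 75 starts of mitochondrial ribosomal protein genes, a share of 12% in each. The share was 38.5% for the large and 36.4% for the small subunit. Counted strictly from the annotated first base, a run of at least 5 pyrimidines was found at 11 of the 48 starts (22.9%), against 4.44% of all promoters. An annotated start a few bases off the true one would miss a run, and no match says only that the letters are not in the window.

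**Figure D1:**
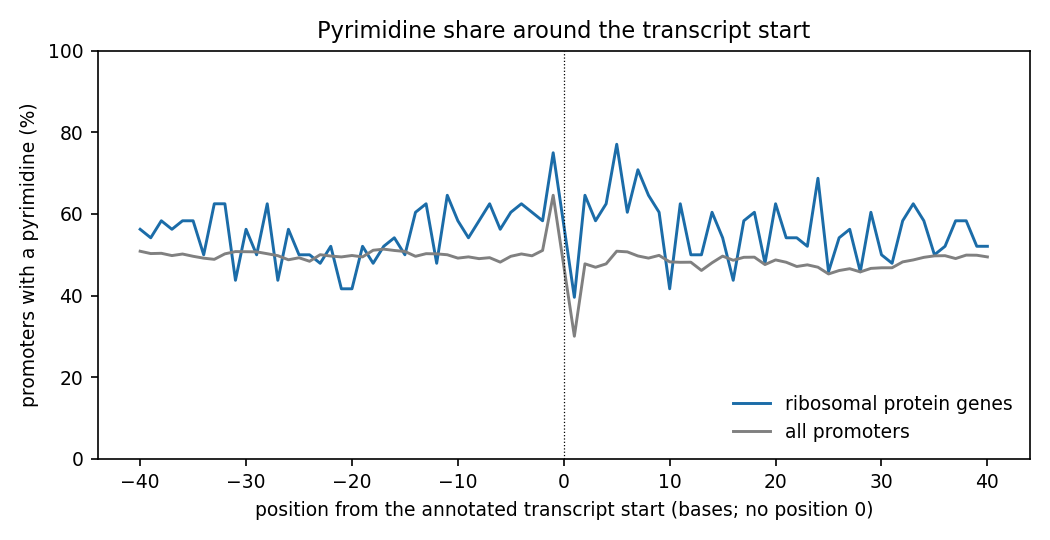
The share of promoters with C or T is plotted against the distance in bases from the annotated transcript start, for the 48 starts of ribosomal protein genes (blue) and for all 32851 promoters (grey). From position 2 to position 9 the blue line lies between 58.3% and 77.1% and the grey line between 46.9% and 50.9%.

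Other letters near these starts were searched on both strands of the 300 bases. The core CCGGAAG bound by ETS factors such as GABP, a known activator of these promoters, was in 20 of 48 (41.7%), against 8.86% of all promoters, and in 34.7% of mitochondrial ribosomal protein promoters. The SP1 core GGGCGG was in 24 of 48 against 35.7% of all, the YY1 letters AAGATGGCG in 2 of 48 (4.17%) against 1.4%, and TATAAA in 10.4% against 13.6%. The Stat spacing TTCNNNGAA was in 3 of 48 (6.25%), those of Rpl35, Rplp0 and Rpl4, against 8.30% of all promoters. In Rpl35 this match overlaps the ETS match, and in 1 promoter the ETS match overlaps the longest pyrimidine run. A match of letters is a description and not a bound site. The median GC content of the 300 bases was 57.2% for these promoters and 52.7% for all.

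Most ribosomal protein genes, 33 of 46, sat at the top of the scale in both genotypes, while 11 lay between log2 6.63 and 12.93 and 2 under the floor. Of the 46 genes, 44 reached log2 5, the level from which a value was counted as measured, in at least 1 array. They made up 6 of the 10, 20 of the 50 and 31 of the 100 brightest of 9774 measured genes. In all, 33 of the 44 were at or above log2 14, a level that 374 of the 9774 genes reached and that was chosen after the values were seen. The brightest gene of the whole table was Rps29, a small subunit protein, at log2 16.35 (fl/wt) and 16.38 (fl/fl). A log2 value of a probe set also carries how well its probes bind, so an order of levels between genes describes the array signal, not molecules per cell.

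Of the 3 measured genes of the stalk of the large subunit, Rplp0 and Rplp2 were very bright and Rpl12 was not. Rplp0, the base of the stalk that recruits elongation factors and a common reference gene, read 15.99 in both arrays. Rplp2, an acidic tip of the stalk, read 16.21 (fl/wt) and 16.20 (fl/fl). Rpl12, which sits at the foot of the stalk, read 11.78 and 11.90. Each stalk member thus differed by at most 0.12 between the arrays, with Rpl12 far dimmer than the other two on its own probe set. It is also read by probe sets shared with other genes, which were not used.

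Around the tunnel through which the new protein leaves, Rpl4 read 15.78 (fl/wt) and 15.77 (fl/fl), Rpl19 read 15.58 and 15.59, and Rpl35 read 16.04 in both. Rpl39, a very small protein of the tunnel wall, read 8.71 and 8.74. These 4 differed between the arrays by no more than 0.024. Rpl11, which with Rpl5 binds Mdm2 and so stabilises p53 when ribosome assembly fails, read 15.19 and 15.22. Rpl13a, which also serves in an interferon-induced complex that silences translation, was the brightest of the 23 measured large subunit genes at 16.32 and 16.33. Rpl22, needed for development of alpha-beta T cells, read 15.60 and 15.59.

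The remaining large subunit genes at or above log2 14 were Rpl6, Rpl7, Rpl7a, Rpl8, Rpl10a, Rpl27, Rpl37a, Rpl38 and Rpl41. The dimmest of these was Rpl41, which encodes the smallest ribosomal protein, at 14.69 (fl/wt) and 14.71 (fl/fl), and the brightest was Rpl7 at 15.65 and 15.63. Rpl8, of the peptide-bond-forming centre, showed the largest positive difference of the bright large subunit genes, 0.062 (14.87 and 14.93), followed by Rpl7a with 0.052 (15.40 and 15.45). Rpl27 had the largest negative one, -0.035 (15.07 and 15.03). Rpl10a, which lies on a mobile stalk of the subunit, read 15.52 and 15.49. Rpl38, known for its part in translation of Hox messenger RNAs, read 15.32 and 15.34, while Rpl37a read 15.48 and 15.49 and Rpl6 read 15.18 and 15.16. Below log2 14 lay Rpl37 at 11.63 and 11.61, Rpl27a at 11.11 and 10.98 and Rpl14 at 10.86 and 10.84, besides Rpl12, Rpl39 and the paralog Rpl39l.

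In the small subunit, the proteins at the channel for the messenger RNA were close to equal in both arrays. At the entry, Rps3, which also binds the NF-kappaB subunit p65, read 15.61 in both arrays, and Rps2 read 15.38 (fl/wt) and 15.37 (fl/fl). At the exit, Rps26 read 15.17 and 15.19, Rps28 read 16.08 and 16.12, and Rpsa, known also as the laminin receptor precursor, read 15.31 in both. Rps14, whose loss is known from a form of myelodysplasia, read 15.15 in both. Over these 6 genes the differences ran from -0.010 to 0.035.

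Rps6, the substrate of S6 kinase and a usual readout of mTOR activity, was dimmer on its own probe set, at 10.93 (fl/wt) and 10.77 (fl/fl), a difference of -0.16. A second probe set of Rps6 was under log2 5 in both arrays. Rps25, known from initiation at internal ribosome entry sites, read 12.73 and 12.75. Rps9 had the largest positive difference of the small subunit genes at or above log2 14, 0.080 (15.26 and 15.34), and Rps24 the next, 0.048 (15.28 and 15.32). Rps15 had the largest negative one there, -0.074 (15.14 and 15.06), and Rps18 followed with -0.030 (16.15 and 16.12). These extremes are beside differences of 0.014 for Rps10 (15.73 and 15.75), 0.010 for Rps7 (15.33 and 15.34) and -0.0029 for Rps20 (15.97 in both), so most genes of the subunit lay closer to 0.

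Rps27 showed the largest difference of all 44 measured members. It read 8.61 (fl/wt) and 8.20 (fl/fl), a difference of -0.42 or 1.34-fold, and under 3 other scalings of the arrays it stayed between -0.42 and -0.41. The fl/fl array was thus lower. Rps27 had 1 probe set of its own, while another that carries its symbol is shared with the near-identical Rps27rt and was not used. With shared probe sets that name 1 ribosomal protein let in, the lowest difference of any small subunit gene was -0.074. The shared, brighter probe set also reads another gene and does not check the -0.42. That value was read on the dimmer probe set of Rps27 alone. At the level of that probe set, differences of this size occur. From log2 8 to 11, 4379 genes had an SD of 0.11 over genes and a range from -0.68 to 0.66.

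Genes linked in people to Diamond-Blackfan anaemia, a failure of red cell production caused by ribosomal protein mutations, were described as a list. Of its 9 large subunit genes, Rpl11, Rpl27 and Rpl35 had a value, 1 higher and 2 lower in fl/fl. Of its 10 small subunit genes, 9 were measured, 6 higher and 3 lower (8 and 1 with centred arrays, 5 and 4 with quantile normalisation), and the median difference was 0.014. Rps19, the gene most often mutated, read 15.17 (fl/wt) and 15.16 (fl/fl). Apart from Rps27, the small subunit members of this list differed by at most 0.048 in size.

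Of the paralogs, Rpl3l, Rpl39l and Rps4l lay at the dim end and Rps27l and Rps4x did not. Rpl3l, a muscle form of Rpl3, read 2.69 and 2.73, both below the floor of log2 5, where values have no order. Rpl39l, a form of Rpl39 known from testis, read 6.99 (fl/wt) and 6.63 (fl/fl), a difference of -0.36. Rps4l, a copy related to the X-linked Rps4x, read 6.71 and 6.98, a difference of 0.27. Rpl39l was lower and Rps4l higher in fl/fl, each on its single probe set, and both kept their sign under 3 other scalings (-0.36 to -0.35 and 0.27 to 0.28). Between log2 5 and 8, 1870 genes had an SD of 0.23 over genes. Rps27l, which p53 induces, was brighter at 12.91 and 12.93, and Rps4x read 15.78 and 15.79. Outside the name rule, the paralogs Rpl22l1 (14.14 and 14.18) and Rpl7l1 (12.14 and 12.11) were also measured.

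**Figure D2:**
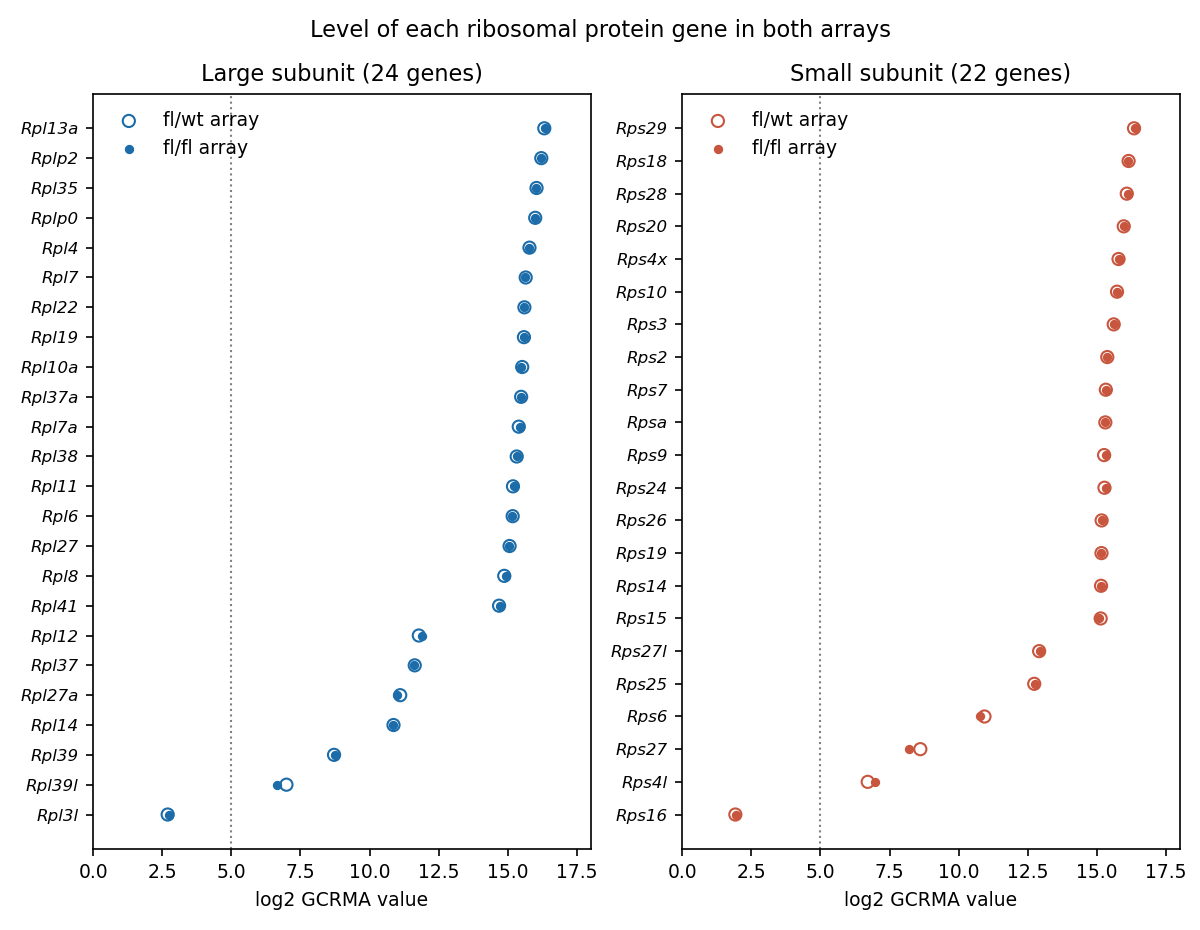
Log2 GCRMA values of the 24 large subunit genes (left) and 22 small subunit genes (right), sorted by mean, with an open circle for the fl/wt array and a filled one for fl/fl, 1 array each; the dotted line marks log2 5. Open and filled circles nearly coincide for the 33 genes at or above log2 14 and come apart for Rps27 (8.61 and 8.20), Rpl39l (6.99 and 6.63) and Rps4l (6.71 and 6.98).

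By their brightest probe sets the subunits had similar median levels, but not under other choices of probe set. The median over the measured genes was 15.32 for the large and 15.28 for the small subunit in fl/wt, and 15.34 and 15.32 in fl/fl, so the large subunit lay higher by 0.048 and 0.018. By the mean over genes it lay lower, by 0.19 in fl/wt (14.13 against 14.32) and 0.20 in fl/fl (14.12 against 14.32). The sign of the comparison therefore depends on the summary. With no filter and no floor, which adds Rpl3l and Rps16, the difference of the medians was -0.013 and -0.037. With the median of all probe sets of a gene in place of the brightest, the large subunit lay higher by 1.62 and 1.58. That median takes in probe sets under the floor, as in Rps4x (15.78 and 1.95 in fl/wt) and Rpsa (15.31 and 3.18). Besides these, Rps3, Rps6, Rps18, Rps20 and Rps24 of the small subunit had such a probe set beside a measured one. Of the large subunit only Rpl27a and Rpl35 did. How much of the gap comes from these probe sets was not tested. Without probe sets of shared suffix, the large subunit lay higher by 1.26 and 1.31. This left 20 members, because it also drops probe sets shared only by transcripts of 1 gene (_a_at). Some members were then read by a dimmer probe set, such as Rps10 (7.57 in fl/wt), Rps3 (10.62) and Rpl41 (12.08).

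The spread of levels was also alike by the SD and unlike by the quartiles. The SD over genes was 2.60 for the large and 2.58 for the small subunit in fl/wt, and 2.64 and 2.60 in fl/fl. The interquartile range was 2.39 for the large subunit and 0.59 for the small in fl/wt, and 2.31 and 0.68 in fl/fl. The lower quartile of the large subunit reached 13.23 in fl/wt because 6 of its 23 genes lay below log2 14, while that of the small subunit was 15.14 with 5 of 21 below. Among members at or above log2 14 alone, the SD in fl/wt was 0.46 for 17 large and 0.40 for 16 small subunit genes, and the interquartile ranges were 0.60 and 0.59.

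Most of the low levels came with a property of the annotation. Of the 11 measured members under log2 14, 8 also had their symbol on probe sets shared with other genes, which the rule leaves out. Over all measured members, the 14 with such shared probe sets had a median of 12.26 in fl/wt, and the 30 without had 15.46. The cause was not tested. When shared probe sets that name 1 ribosomal protein were let in, 71 genes were measured and 68 of them reached log2 14. The medians in fl/wt were then 15.56 for 44 large and 15.33 for 27 small subunit genes, the SDs 1.35 and 1.85, and the interquartile ranges 0.50 and 0.83. This choice also added genes, from 23 to 44 of the large and from 21 to 27 of the small subunit. The order of the spreads thus turned with the probe sets and the genes that they add, and the part of each was not tested.

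The kind of probe set also went with the level. The suffix of a probe set tells whether its probes are specific to 1 transcript (_at), shared by transcripts of 1 gene (_a_at), or partly shared with unrelated transcripts (_x_at). The 12 measured members read by an _at probe set had a median of 11.02 in fl/wt, the 18 read by _a_at had 15.46 and the 13 read by _x_at had 15.32. Ribosomal protein genes have many processed copies in the genome, so the _x_at readings may include other transcripts and are uncertain in this respect. Of the 12 members read by _at, 6 differed by less than 0.1 between the arrays, against all 18 and all 13 of the other kinds. The subunits were alike in kind: _x_at stood for 6 of 24 large and 7 of 22 small subunit genes. Level, kind of probe set and size of difference thus moved together, and their parts cannot be told apart here.

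The arrays were almost equal over the ribosomal protein genes. Of the 44 measured, 23 were higher (52.3%) and 21 lower in fl/fl, where 47.5% of all 9774 genes were higher and 52.5% lower. The median difference was 0.0025, beside -0.0045 for all measured genes, and the range ran from -0.42 (Rps27) to 0.27 (Rps4l). With each array centred on its median the split was 28 higher and 16 lower (63.6% higher, all genes 53.1%), with quantile normalisation 19 and 23 with the others equal, and with a loess curve 22 and 22. These scalings moved the median of all genes to 0.0056, -0.0010 and -0.00081. The direction of the family depends on them and no direction is given.

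By subunit, the large subunit had 10 genes higher and 13 lower in fl/fl and a median of -0.0022, and the small subunit had 13 higher and 8 lower, its median being 0.0067. The difference between these medians was -0.0089. It was -0.033 with the median of all probe sets of a gene and 0.00063 without probe sets of shared suffix, so its size and sign depend on the probe sets. With quantile normalisation the counts were 9 higher and 12 lower for the large subunit and 10 and 11 for the small, with medians of -0.0031 and -0.0024. With centred arrays they were 12 and 11 against 16 and 5, with medians of 0.0080 and 0.017. Whether the subunits differ in this respect could not be tested with 1 array per genotype.

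No member passed 1.5-fold in either direction, where 0.246% of all measured genes were at least 1.5-fold higher and 0.399% at least 1.5-fold lower. At 1.2-fold, Rps4l was higher (2.37% of all genes were), and Rps27 and Rpl39l were lower (2.85% of all genes were). Of the 44 members, 38 differed by less than 0.1 on the log2 scale, or 86.4%, against 73.2% of all genes. The 6 others were Rpl12 (0.12), Rpl27a (-0.13), Rps6 (-0.16), Rps4l, Rpl39l and Rps27, all below log2 14. With shared probe sets that name 1 ribosomal protein let in, the highest large subunit difference was 0.062 and the lowest small subunit one -0.074. Under that choice brighter probe sets, which also read other genes, stand for Rpl12, Rps6 and Rps27. With it 68 of 71 genes reached log2 14, a level where 371 of 374 measured genes differed by less than 0.1. The choice therefore does not check the values that Rpl12, Rps6 and Rps27 had on their own probe sets.

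Size of difference went with level, in members and in all genes. All 33 members at or above log2 14 differed by less than 0.1, from -0.074 (Rps15) to 0.080 (Rps9), with an SD over genes of 0.030. Of the 374 genes at that level, 371 (99.2%) did so, with an SD of 0.034. Of the 11 members under log2 14, 5 differed by less than 0.1 and the SD was 0.20. Over the 9400 genes under log2 14, 72.2% did so and the SD was 0.13. By level, 3 of 5 members from log2 11 to under 14 differed by less than 0.1, against 91.7% of all genes there. From 8 to under 11 it was 2 of 4 against 70.3%, and from 5 to under 8 it was 0 of 2 against 43.7%. In each of these bands the share was lower among the members, on few genes. Near-equal values of the bright members are therefore what most genes of that level showed.

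**Figure D3:**
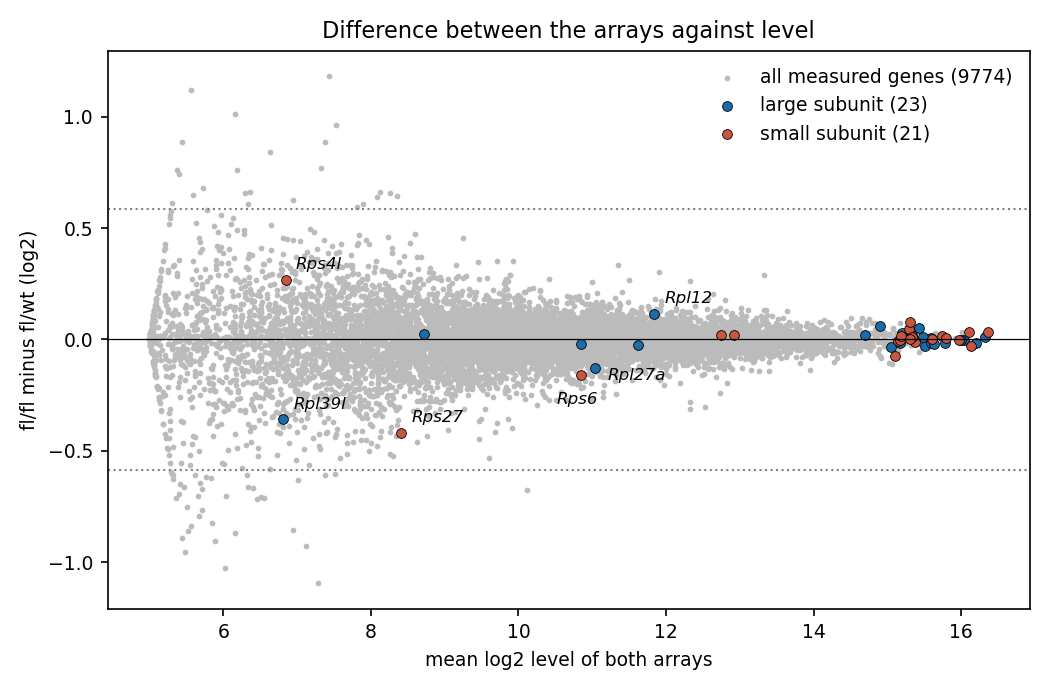
The fl/fl minus fl/wt difference (log2) is plotted against the mean level of both arrays for all 9774 measured genes (grey), 23 large subunit genes (blue) and 21 small subunit genes (red), with dotted lines at 1.5-fold. The grey cloud narrows to the right, where 33 members lie between -0.074 and 0.080, and Rps27 at -0.42 is the lowest coloured point.

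Several probe sets for 1 gene give the only repeat measurement in these data. The 46 genes had 100 probe sets, and 23 of the genes had at least 2. Their levels differed by 0.21 (Rps14) to 14.2 (Rps3) log2 units within a gene, with a median range of 4.61. Rps3 read 15.61 in fl/wt on its brightest probe set and 1.39 on its dimmest, and Rps4x read 15.78 and 1.95. Rps18, Rps20, Rps24, Rps6, Rpl35, Rpl27a and Rpsa likewise had a probe set under log2 5 in both arrays beside a bright one. This makes 9 such genes, and 14 of the 100 probe sets were under log2 5 in both arrays. Rps16, a small subunit protein, had a single probe set of its own, at 1.92 (fl/wt) and 1.94 (fl/fl). Its low value therefore has the same size as those of the dim second probe sets, and it was not counted as measured.

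Differences of such probe sets were small and rarely of a single direction. In 13 of the 19 genes with at least 2 measured probe sets, these went in both directions. All 5 measured probe sets of Rps24 were higher in fl/fl, by 0.027 to 0.081, and all 3 of Rps28 (0.0055 to 0.035) and of Rps29 (0.0021 to 0.031) were too. Both of Rps7 (0.010 and 0.16) and both of Rps3 (0.0020 and 0.061) were higher, and both of Rps15 were lower (-0.074 and -0.022). In Rps9 the probe sets ran from -0.091 to 0.080, and in Rps10 from -0.22 for the dimmest of 6 to 0.035. The 6 genes with all their measured probe sets in 1 direction were of the small subunit, as were most of the 19. The large subunit genes among the 19 were Rpl7, Rpl13a, Rpl22, Rpl27, Rpl35, Rpl37a and Rpl41, each with at least 3 measured probe sets. Rps3, Rps7 and Rps15 had only 2 each, which more easily share a direction. Differences as small as 0.0020 also lie within the 0.024 by which another scaling moved a member. None of the 3 members past 1.2-fold had a second probe set of its own, though Rps27 also has its symbol on a shared one.

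**Figure D4:**
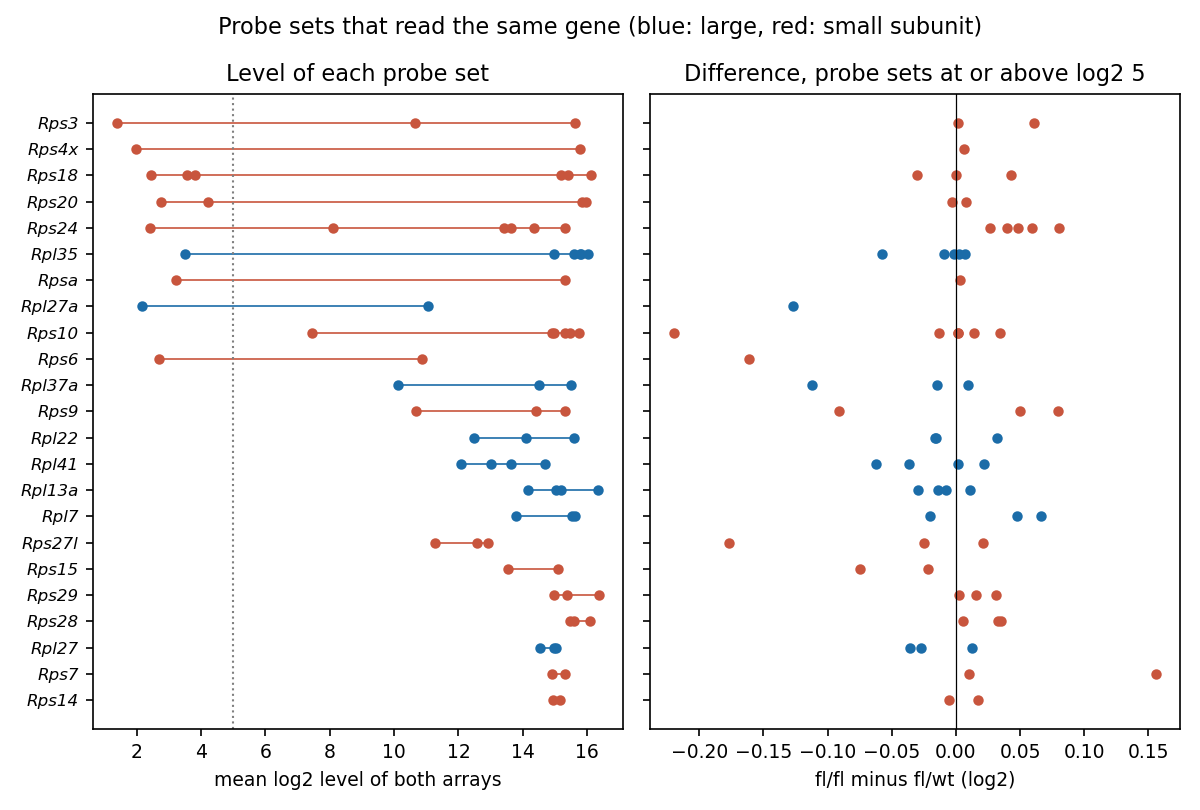
Each row is a gene with at least 2 probe sets (blue for large, red for small subunit), sorted by the range of its levels; the left panel gives the mean log2 level of each probe set, with a dotted line at log2 5, and the right panel the fl/fl minus fl/wt difference of those at or above log2 5 in both arrays. Levels within a gene span up to 14.2 log2 units (Rps3), while the differences lie between -0.22 and 0.16.

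The 110 probe sets that carry a ribosomal protein symbol along with other gene names cannot be assigned to 1 gene, and are given only as a set. In both arrays 102 of them reached log2 5, and the median level was 15.29 in fl/wt and 15.28 in fl/fl. Their differences ran from -0.12 to 0.11, with 55 higher, 47 lower and a median of 0.0041, and 99 of the 102 differed by less than 0.1.

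Other parts of the translation machinery were read from lists. Of 17 measured transcripts listed as carrying a TOP element but not named Rpl or Rps, 9 were higher and 8 lower in fl/fl. Their median difference was 0.000057, and their median level of 15.05 in fl/wt was near that of the ribosomal proteins. The element itself was not checked in them. With centred arrays the split was 13 and 4, and with quantile normalisation 6 and 11. Among them Fau, which encodes a small subunit protein fused to a ubiquitin-like domain, read 15.31 in both arrays, and Gas5, a non-coding host of small nucleolar RNAs, read 14.34 and 14.39. Elongation and release factors had 3 higher and 6 lower and a median of -0.011, with Eef1a1 at 15.73 and 15.75 and Etf1 at 11.05 and 10.98. For this list centred arrays gave 4 and 5 (median -0.0013), and quantile normalisation 1 and 8. Initiation factors had 15 higher and 21 lower and a median of -0.0099, or 18 and 18 with centred arrays. The largest difference there was that of Eif4ebp2, an inhibitor of translation initiation that mTOR switches off, at 12.48 (fl/wt) and 12.17 (fl/fl), or -0.31. Eif3k (0.059) was the highest.

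Genes that build ribosomes and those of the mitochondrial ribosome had more genes lower in fl/fl than higher under each of the 4 scalings. Over all 9774 genes 47.5% were higher as deposited, 53.1% with centred arrays, 49.1% with quantile normalisation and 49.5% with loess. Of 54 measured biogenesis and RNA polymerase I genes, the fl/fl value was above the fl/wt value in 19 and below it in 35, the median difference being -0.022 (23 and 31 with centred arrays, -0.012). The factor Bysl differed by -0.18 and Lsg1 by -0.17, while Efl1, which helps release Eif6 from the large subunit, differed by 0.22 and Ebna1bp2 by 0.082. Of the 76 mitochondrial ribosomal protein genes, it was above in 22 (28.9%) and below in 54, the median being -0.026 beside -0.0045 for all genes. With centred arrays the mitochondrial counts were 32 higher (42.1%) and 44 lower (median -0.016), with quantile normalisation 23 and 51 (-0.022) and with loess 26 and 50 (-0.023). No gene of either list passed 1.5-fold. Mrpl1 (-0.19) and Mrpl34 (-0.19) were lowest and Mrps27 (0.15) and Mrpl50 (0.15) highest.

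**Figure D5:**
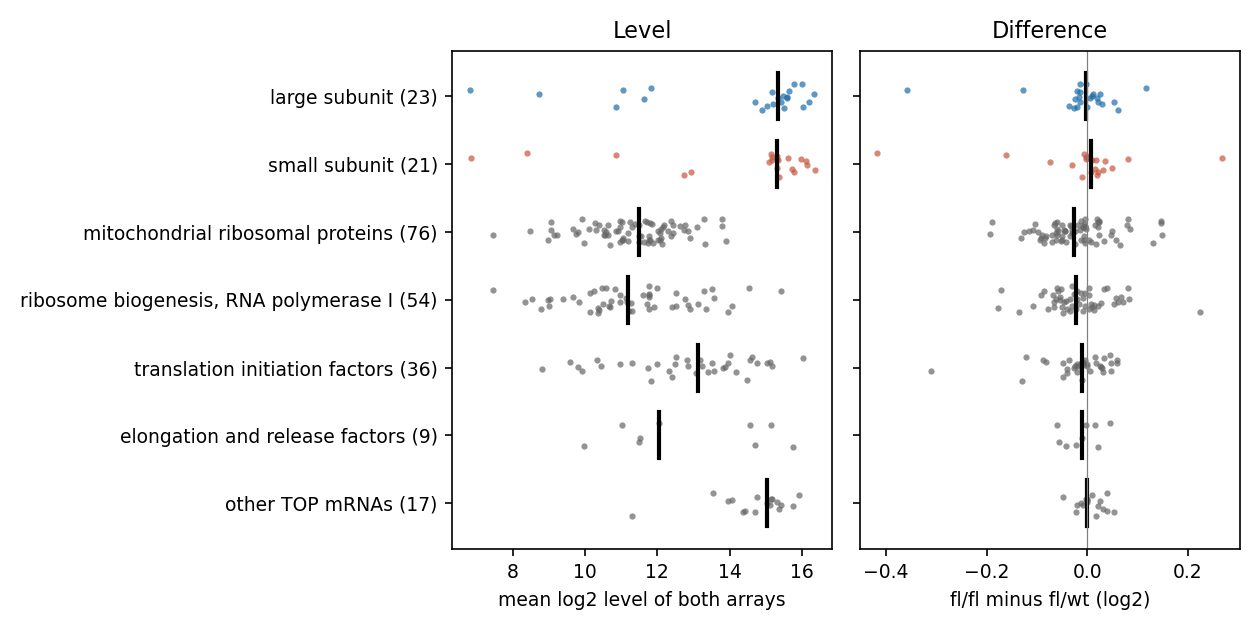
Mean log2 level of both arrays (left) and fl/fl minus fl/wt difference (right) of each measured gene in 7 groups, with the number of genes in brackets and a black bar at the median. Ribosomal proteins of both subunits and the other TOP mRNAs have the 3 highest median levels, and the differences of all 7 groups centre between -0.026 and 0.0067.

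The targeted gene and the sorted cell type were checked on the same arrays. Stat3 read 11.998 (fl/wt) and 11.99 (fl/fl) on its brightest probe set, whose place with respect to the floxed exons the sources used here do not give, so the value does not check the labels. Of 10 Treg markers, 9 were measured, from 12.08 to 14.91 in fl/wt and 12.17 to 14.87 in fl/fl. The exception was Foxp3, at 4.09 and 3.52. Of 6 red cell markers, only Alas2 was measured, at 6.26 and 5.97. Myeloid markers were 5 of 6, from 10.56 to 13.99 in fl/wt and 10.51 to 14.002 in fl/fl, and B cell markers 4 of 6, from 5.31 to 10.34 and 5.15 to 10.26. Plasma cell markers were 3 of 4, from 10.03 to 13.98 in fl/wt and 10.08 to 13.97 in fl/fl, with Sdc1 under the floor. Markers of CD8 and NK cells were 3 of 5, from 6.16 to 8.54 and 6.15 to 8.81, with Cd8b1 differing by 0.27. The part of these cell types in the ribosomal protein values was not tested. The 3′ minus 5′ signal of the Actb control, a sign of RNA quality, was 1.83 (fl/wt) and 1.86 (fl/fl).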

How the data were processed

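Deposited values are on the log2 scale, for 45101 probe sets on 2 arrays, and come from GCRMA per the submitters' processing notes. On its version, settings and the set of arrays normalised together, the sources used here say nothing. The method subtracts a sequence-based background and equalises the arrays, which pulls dim probe sets to a low end without order and can compress the brightest. Names came from the annotation of the platform, and only probe sets with 1 gene symbol stand for genes. Values under log2 5 were set to 5, and genes under it in both arrays were left out. Differences are fl/fl minus fl/wt on the log2 scale. The array number limits the precision, and the labels do not tell technical from biological spread. Computations used Python 3.11.15, pandas 2.3.3 and statsmodels 0.14.6, and were tested on simulated data. Members, lists and named genes (both arrays' values for the extremes in each subunit, the role lists, the paralogs and up to 4 genes of every other list) were chosen with earlier results of these data known. Alternatives in floor, probe set, scaling, fold and members were run.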

Additional observations from a re-analysis of the deposited data

How the results depend on the processing

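A median or spread was taken as moved where its shift exceeded the SD among a member's probe sets divided by the root of the number of small subunit genes (0.012 for differences, 0.40 for levels). As the median of all probe sets of a gene, the large subunit difference was -0.015, large minus small -0.033, and the level of large minus small 1.62 (fl/wt) and 1.58 (fl/fl). For the levels, this median takes in probe sets under the floor, which more small than large subunit members had. Without probe sets of shared suffix (_a_at included), which leaves 20 members, the small subunit difference was -0.0094 and the level of large minus small 1.26 and 1.31. The interquartile range differed by 1.80 and 1.63 where the SDs differed by 0.014 and 0.040; with probe sets of several symbols, an alternative chosen after the data were seen, the SDs differed by -0.50 and -0.40. A 1.2-fold threshold, which by construction cannot call fewer genes than 1.5-fold, gave 1 higher and 2 lower. The 1.5-fold and 2-fold thresholds gave 0 and 0. The median over all members ran from -0.0088 to 0.013 over 11 alternatives, 2 of them of opposite sign. Members at or above log2 14 alone, also chosen afterwards, gave -0.0063 for large minus small. No paired analysis was possible because each genotype has 1 array, and no array could be left out.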
